A study of Mus musculus with 12 samples.

Results

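Some stretches of mouse hippocampal mRNA were called as 5-methylcytosine (m5C) peaks at exactly the same place in every sample of a study of ageing. Peaks of the 6 deposited lists were joined across lists, strand by strand, wherever they met or overlapped, which gave 24501 regions. A constant region was one with exactly 1 peak in each list and the same start and end in all 6, and 2961 regions met this rule. The members were therefore chosen by the measured peak positions, so their number and their presence at both ages are a description and were not tested. Their widths, exact ends and places along genes come from the coordinates that the rule read, and their host genes follow from those. These are given without a p-value. The other peaks in the host genes, which the rule left over, were compared between ages by a test.

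The study profiled m5C in RNA of the hippocampus of wild-type C57BL/6 female mice at 2 ages. The aged group was 18 months old and the young group 3 months old, with 3 immunoprecipitated (IP) samples of each age, and each had its own input library of RNA that was not immunoprecipitated. No other treatment or genotype was labelled. An antibody to m5C pulled down randomly fragmented RNA, and each list holds the places where the authors called an IP sample enriched over its input. The aged lists held 15189, 14008 and 14294 peaks, and the young lists 9887, 8549 and 10392. Read counts did not come with the lists, so the depth behind a peak is unknown. Nothing states that the samples of 1 age are separate animals, so p-values reflect sample-to-sample spread only, part of which may be technical. In bulk tissue, fewer cells of a type and less RNA per cell cannot be told apart.

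m5C is a cytosine with a methyl group at position 5. In RNA it is laid down by enzymes of the NSUN family and by DNMT2, it can be oxidised by TET enzymes, and proteins such as ALYREF and YBX1 bind it. It is best known from transfer and ribosomal RNA, and in mRNA it has been linked to export, stability and translation. An antibody peak marks a stretch of RNA and not the modified base, and its presence depends on how abundant the transcript is as well as on the mark.

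Constant regions made up 19.5%, 21.1% and 20.7% of the peaks of the aged lists, against 29.9%, 34.6% and 28.5% of those of the young lists. The number is the same in each list by the rule, so these shares follow the lengths of the lists. Together the regions covered 882 kb. They lay on every chromosome, with 236 on chromosome 1, 234 on chromosome 5, 114 on the X chromosome and 1 on the Y chromosome. Of the 2961, 1508 were on the plus strand and 1453 on the minus strand. Spans of 21900 protein-coding genes of RefSeq (GRCm38.p6, the mm10 build) placed 2910 in 1 gene, 8 in overlapping genes and 43 in none. Coordinates count from 1, and the annotation used here holds no exons or untranslated regions, so places are given along the whole gene, introns included.

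A set of 155 constant regions began exactly at a transcript start of the RefSeq promoter table (GRCm38.p6). The table names the same gene for 154 of them. Predicted genes, a chromosome whose sequences are not reported here and regions under 30 bases were left out. Of the rest, the DNA of the 6 whose lowest within-list score rank was the highest is shown, with ties going to the wider region. The 20 bases before the start are in lower case, and the 30 bases in capitals are the first of the constant region, read in the direction of the gene.
Trim44: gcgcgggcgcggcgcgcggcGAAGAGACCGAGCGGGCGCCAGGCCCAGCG
Ptms: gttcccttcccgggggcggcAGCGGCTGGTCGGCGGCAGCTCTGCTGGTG
Ywhah: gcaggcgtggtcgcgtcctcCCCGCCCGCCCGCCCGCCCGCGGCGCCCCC
Nmt2: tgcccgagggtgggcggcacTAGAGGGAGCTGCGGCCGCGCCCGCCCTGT
Hivep2: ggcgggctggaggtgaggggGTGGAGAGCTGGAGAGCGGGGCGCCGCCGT
Kcnk2: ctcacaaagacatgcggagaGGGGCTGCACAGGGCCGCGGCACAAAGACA

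The constant regions that these sequences open were at chr2:102400013-102400900 (minus strand, Trim44, a member of the TRIM family), chr6:124917560-124917946 (minus, Ptms, parathymosin) and chr5:33018816-33019154 (plus, Ywhah, the 14-3-3 eta adaptor). The others were at chr2:3284212-3284406 (plus, Nmt2, an N-myristoyltransferase), chr10:13966379-13966697 (plus, Hivep2, a zinc finger transcription factor) and chr1:189343301-189343707 (minus, Kcnk2, a two-pore potassium channel). Over the 154 starts, the first 50 bases were 29.8% C and 39.5% G, against 26.6% C and 30.1% G over all 32817 annotated starts. The motif CTCCA, which the human enzyme NSUN6 prefers, was found in 4 of the 154 stretches (2.60%) on the strand of the gene and in 11 (7.14%) on the other strand. Over all annotated starts it was in 7.48% on the strand of the gene and in 10.5% on the other strand. All annotated starts include those of genes without a peak, and starts where other peaks begin were not compared. Whether these differences are particular to constant regions was not tested. A match or its lack in these 50 bases says nothing about the rest of a region.

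Constant regions were narrow. Their width ran between 9 and 8104 bases with a median of 171 and quartiles of 125 and 261, and 65.6% were at least 100 and under 300 bases. The other peaks had median widths of 247, 253 and 270 bases in the aged lists and 327.5, 319 and 331 in the young lists. Within each of the 6 lists the constant regions had the lower median, with a mean difference of -120 bases. Against only the other peaks of regions shared by all 6 lists the difference was -709 bases. A width that is a multiple of 3 was found for 1235 constant regions (41.7%), against 37.1% ± 0.445 of the other peaks in aged lists and 36.7% ± 0.314 in young lists (SD, n = 3 each). The mean difference was 4.77 percentage points, and this measure was added after the data were examined.

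**Figure D1:**
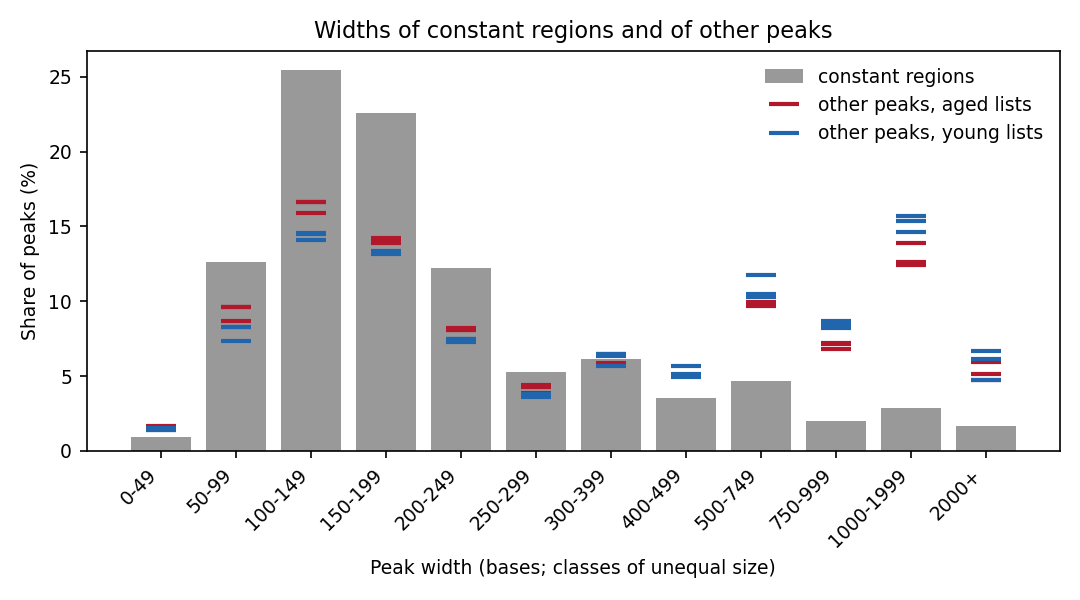
Share of peaks in each width class (y axis, percent) by peak width in bases (x axis, classes of unequal size); grey bars are the 2961 constant regions, red and blue marks the other peaks of the 3 aged and 3 young lists. Constant regions exceed the other peaks of every list between 50 and 300 bases and lie below them from 400 bases upward.

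A few constant regions were very wide. In all 134 (4.53%) were at least 1000 bases wide and 49 of them at least 2000. The widest, at chr2:121299269-121307372, covered 8104 bases of Map1a, which encodes a microtubule-associated protein of neurons. Map1b, its relative, had a region of 6490 bases at chr13:99429212-99435701, and Ankrd11, a chromatin-bound regulator of transcription, one of 6518 bases at chr8:122889639-122896156. Kif1b, a motor that carries synaptic vesicle precursors, held one of 4492 bases at chr4:149176319-149180810 and Cplx2, a complexin that acts in synaptic vesicle fusion, one of 4406 at chr13:54379512-54383917. The Adora1 region (an adenosine receptor, 4376 bases, chr1:134199215-134203590) ended at the annotated end of its gene, as did that of Kif1b. Golga4, a Golgi coiled-coil protein, had one of 4211 bases. The region of Pnmal2, a gene of the paraneoplastic antigen family, was 4147 bases wide and was the whole gene span.

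Along genes, constant regions were spread through the body and were scarce at the far end. Of 2902 in spans of at least 2000 bases, 269 (9.27%) had their midpoint in the first 1000 bases and 102 (3.51%) in the last 1000, while 2531 (87.2%) lay in neither. The midpoints were a median 31.0 kb from the gene start and 22.0 kb from the gene end. Among the other peaks, the last 1000 bases held 9.45%, 9.70% and 10.3% in the aged lists and 11.2%, 11.8% and 11.7% in the young lists. The share of constant regions there was lower in 6 of 6 lists (mean difference -7.18 percentage points). The constant regions are the same in every list, so only the other peaks vary in this comparison. The difference was -2.53 percentage points with windows of 500 bases, -14.1 with windows of 2000 bases and -12.8 against only the other peaks of regions shared by all lists. In the first 1000 bases, the constant share of 9.27% stood against 9.61%, 10.8% and 9.31% in the aged lists and 8.17%, 9.05% and 8.87% in the young lists. It was within the range of the lists (difference -0.03 percentage points). This difference changed sign without aged list 1 (0.284) or aged list 2 (0.632). It was -2.87 when only other peaks in regions shared by all 6 lists were used, and 1.89 when ends could differ by up to 50 bases.

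**Figure D2:**
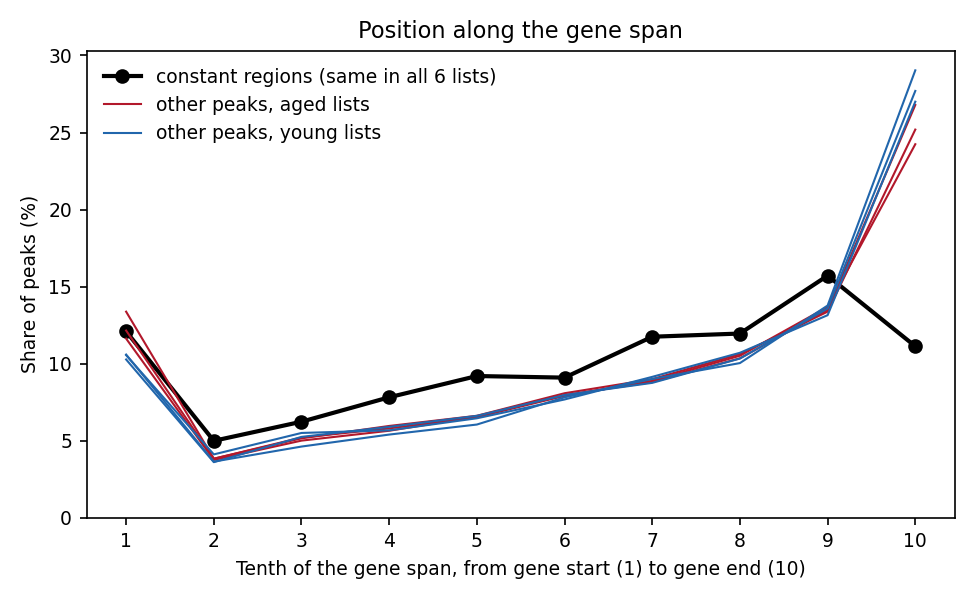
Share of peaks (y axis, percent) by the position of the midpoint in 10 equal parts of the gene span, numbered from the gene start (x axis); black is the constant regions, thin red and blue lines the other peaks of the 3 aged and 3 young lists. In part 10 the constant regions reach 11.1%, while the other peaks of every list lie between 24.2% and 29.0%.

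With the gene span divided into 10 equal parts, constant regions were most frequent in part 9 (15.7%), followed by part 1 (12.1%), and least frequent in part 2 (5.00%). Part 10 held 11.1% of them, against 25.2%, 24.2% and 26.8% of the other peaks in the aged lists and 27.7%, 27.0% and 29.0% in the young lists. The plot of position along the gene shows that the lines of the other peaks climb steeply at the far end in all lists, at both ages, and that the line of the constant regions turns down there. Counted by exact ends, 155 of the 2961 (5.23%) had their 5′ end at an annotated transcript start. Among the other peaks that share was 4.18% ± 0.332 in the aged lists and 3.64% ± 0.0880 in the young lists (SD, n = 3 each). The mean difference was 1.32 percentage points, a measure added after the data were examined, and it was 0.735 among peaks from the median score of each list upward and 2.42 with ends allowed to differ by up to 50 bases. Of all constant regions, 86 began at the start of the gene span, 78 ended at its end and 2 filled it.

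The 2910 regions placed in a single gene, with the overlapping cases left aside, had 1634 host genes, or 17.6% of 9308 genes with a peak in any list and 55.2% of 2960 with one in every list. These shares are set by the rule. Host genes were long: their median span was 51.5 kb, against 30.3 kb ± 0.393 for the other genes with a peak in the aged lists and 31.1 kb ± 1.25 in the young lists (SD, n = 3 each). The difference of 20.8 kb was positive in 6 of 6 lists, a measure added after the data were examined. The host median is the same in every list, and the other genes of the lists are partly the same. Only the other genes therefore vary between lists in this comparison. Hosts had a peak in every list by the rule, while the other genes needed a peak only in the list at hand. Most hosts had a single constant region, 975 of 1634, while 370 had 2, 144 had 3, 70 had 4 and 75 had 5 or more. The 659 hosts with at least 2 held 1935 regions (66.5%). Neighbouring regions in a gene were a median 5392.5 bases apart (quartiles 2417 and 15930, n = 1276), and none of these gaps was under 565 bases.

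The host with the most was Ryr2, which encodes the ryanodine receptor that releases calcium from the endoplasmic reticulum. It had 14 constant regions of 52 to 1298 bases, all in the second part of its 553847-base span, with midpoints between 59.2% and 95.5% of the way along it. Its widest, at chr13:11594682-11595979, had scores of 3100, 2938 and 3100 in the aged lists and 2022, 1602 and 3018 in the young lists. The score is the authors' own value per peak, starts at 50 and is saturated at 3100 for many peaks. It is used here only to place a region among the peaks of its own list, and no difference in score between ages was tested.

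**Figure D3:**
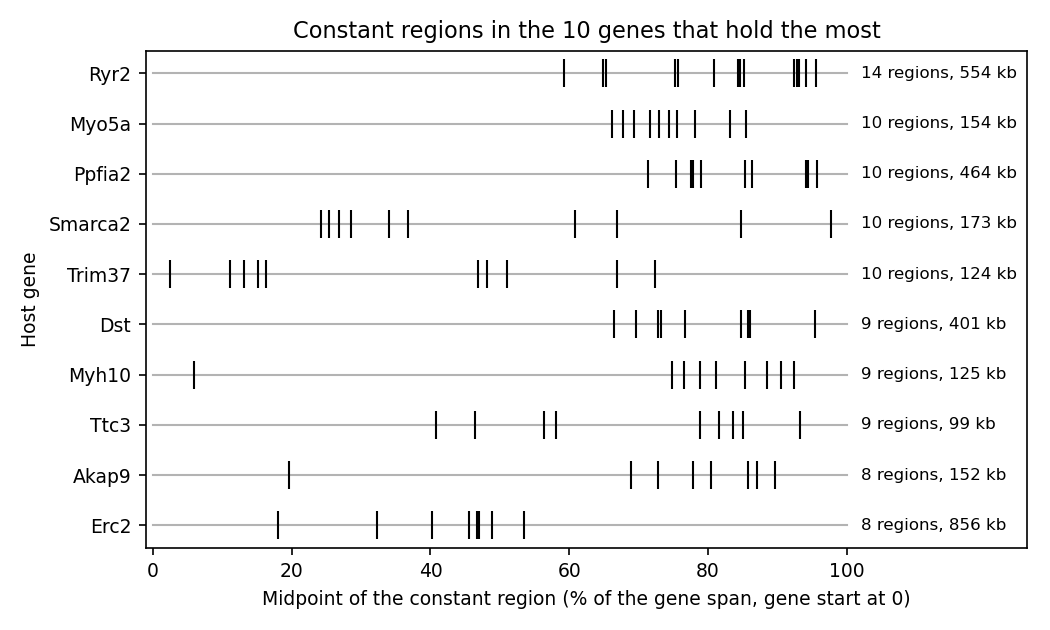
Midpoints of constant regions (black ticks) along the span of the 10 genes that hold the most, with the position as a percentage of the span from the gene start at 0 (x axis) and 1 gene per row; the number of regions and the span are at the right. In Ryr2, Myo5a, Ppfia2 and Dst all ticks lie beyond 59% of the span, and in Trim37 they lie between 2.40% and 72.3%.

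Myo5a, an actin motor that moves cargo in axons and spines, had 10 constant regions of 94 to 249 bases between 66.2% and 85.5% of its span, and no other peak of its own in any of the 6 lists. Its strongest, at chr9:75173952-75174200, scored 3100 in each aged list and 3014, 2046 and 2889 in the young lists. All called peaks placed in Myo5a alone thus had the same ends in every sample, while their scores differed between lists. Ppfia2 (liprin alpha, a scaffold of the presynaptic active zone) had 10 regions of 94 to 222 bases, Trim37 (a ubiquitin ligase) 10 of 86 to 219 bases, and Smarca2 (an ATPase of the SWI/SNF chromatin remodeller) 10 of 54 to 228 bases. Dst (dystonin, a linker of cytoskeletal filaments), Myh10 (a non-muscle myosin heavy chain) and Ttc3 (a ubiquitin ligase) had 9 each, and Akap9 (an anchor of protein kinase A) and Erc2 (an active zone protein) 8 each. As the map of the 10 genes with the most shows, the regions of Ryr2, Myo5a, Ppfia2 and Dst were all beyond the middle of the gene, while Trim37 had its first at 2.40% of the span and its last at 72.3%.

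Smarca2 and its paralogue Smarca4, the alternative catalytic ATPases of the SWI/SNF complex, offered a comparison of related genes. Smarca4 had 8 constant regions. Both genes held a pair of regions of 174 bases, at chr19:26648984-26649157 and chr19:26651549-26651722 in Smarca2 and at chr9:21639218-21639391 and chr9:21640912-21641085 in Smarca4. Widths of 131 and 228 bases were also found once in each. These shared widths were noticed after the values were seen and were not tested.

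By score, constant regions ranked high among all peaks of each list. Their median score was 626, 570 and 545 in the aged lists, where the other peaks had 113, 110 and 110, and 340, 229 and 307 in the young lists, where the other peaks had 99.1, 89.9 and 94.3. As a percentile among all peaks of the same list, the median constant region stood between 80.6 and 82.1 in the aged lists and between 69.8 and 74.5 in the young lists. Percentiles of lists of different lengths do not compare the ages. The other peaks include those of regions found in fewer lists. Scores of regions with a peak in every list but other ends were not compared with those of constant regions. Whether the high scores go with identical ends, or with a peak in every list, was therefore not tested. Of the peaks at 3100 or above, 427 of 707, 382 of 616 and 388 of 641 were constant in the aged lists, and 255 of 415, 171 of 283 and 225 of 361 in the young lists. So about the same share, between 60.4% and 62.3%, of the highest-scoring peaks of each list was constant. In all, 156 regions (5.27%) were at or above 3100 in all 6 lists and 2483 in none. With the peaks below the median score of each list left out, 1812 regions met the rule.

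**Figure D4:**
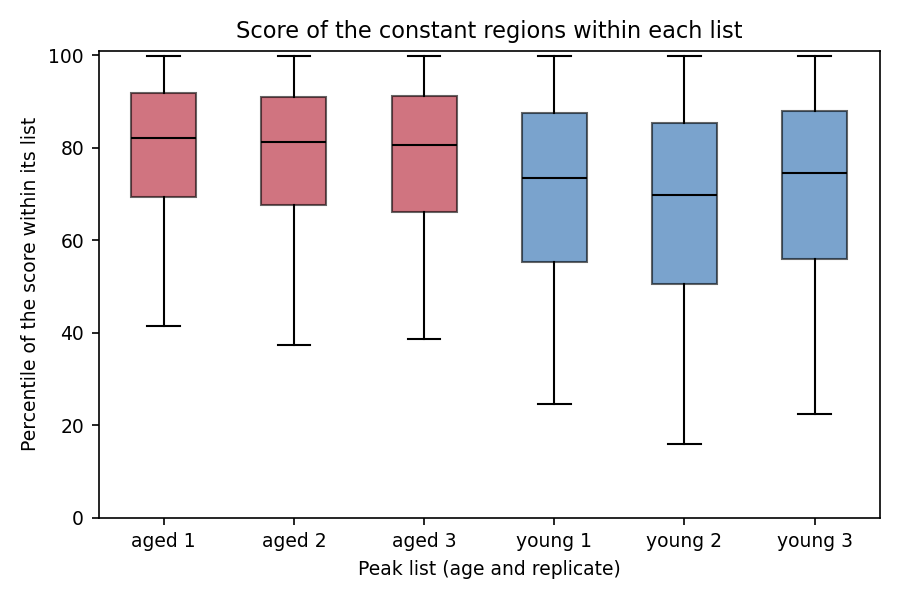
Percentile of each constant region's score among all peaks of the same list (y axis) in the 3 aged and 3 young lists (x axis). Boxes are quartiles with the median. Whiskers end at a fixed low and a fixed high percentile, the same in every list, and farther points are not drawn. The medians lie between 80.6 and 82.1 in the aged lists and between 69.8 and 74.5 in the young lists, and lists of different lengths do not compare the ages.

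The regions with the highest scores throughout, at 3100 in each of the 6 lists, were led by Ankrd11, Map1b and Cplx2. Next by width came Elavl3 (a neuronal RNA-binding protein, 3850 bases, chr9:22015005-22018854), Kif5a (a kinesin heavy chain, 2727 bases, chr10:127225695-127228421) and Nefm (the medium neurofilament subunit, 2102 bases, chr14:68119283-68121384). Duxf3, Ntm (neurotrimin, an adhesion molecule), Chgb (chromogranin B of dense core granules) and Baz1b (a chromatin remodeller subunit) followed. Duxf3 belongs to a repeated gene family, so reads of near-identical copies may be split or shared there, and its value is uncertain. Elavl3, Kif5a and Nefm are typical of neurons.

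Weak peaks also had constant ends. Dnaaf1, a factor for the assembly of ciliary dynein arms, had the lowest mean percentile: its region of 158 bases at chr8:119590579-119590736 scored 53.4, 80.5 and 53.0 in the aged lists and 105, 56.6 and 53.7 in the young lists, close to the lowest score in use. Others of the 10 weakest were in Mtres1, Plekha5, Atp6v0a2, Jakmip2, Cep162, Tanc1, Ube2e2 and Vcam1. Ctss (cathepsin S, a lysosomal protease of microglia) scored 114, 108 and 100 in the aged lists and 60.5, 50.8 and 51.8 in the young lists. Its regions of both ages had the same ends, at chr3:95538721-95538843. Only 6 of the 2961 were under 100 in all lists, whereas 430 never fell below the 90th percentile of their list. Across the 2961 regions, Spearman's rho of the scores was 0.894 to 0.902 between aged lists, 0.822 to 0.858 between young lists and 0.780 to 0.848 between lists of different age. The regions share libraries and transcripts, so these values only describe the lists.

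Just outside the rule were 1184 regions with exactly 1 peak in each list but other ends. Of the 4145 regions with 1 peak in each list, 71.4% thus had identical ends. Of the 1184, 451 kept the start coordinate, 488 kept the end coordinate and 245 kept neither, and the median largest shift was 295 bases. For 175 of them 5 lists were identical and only 1 differed. The odd list was aged 1, 2 or 3 in 30, 24 and 21 cases and young 1, 2 or 3 in 16, 48 and 36. Its peak was the shorter one in all but 2 of the 175. The nearest misses were by 1 base in Atp8a1 (a phospholipid flippase), where young list 3 had 270 bases and the other lists 271, in Stk32c (a kinase), with 418 in aged list 1 and 419 elsewhere, and in Tef (a transcription factor under circadian control), with 306 in young list 2 and 307 elsewhere. Actc1 and Igsf11 were among those that missed by 2 bases. In 3 regions the ends were the same within each age and differed between the ages. Ccnh (cyclin H) had a peak of 250 bases in the aged lists and 758 in the young lists, Ecpas (a proteasome adaptor) 151 in aged and 61 in young, and Rps14 (a ribosomal protein) 101 in aged and 177 in young.

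Identical ends were also common in regions found in fewer lists. Of regions with exactly 1 peak in each of 2, 3, 4 and 5 lists and none in the rest, 67.5%, 66.3%, 63.6% and 66.2% had identical ends. Among regions found in all 3 aged lists and no young list, 894 of 1247 (71.7%) did, and among those in all 3 young lists and no aged list, 101 of 155 (65.2%).

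Host genes were then counted in lists of genes by role, all against the background of 17.6% of genes with a peak. Cytoskeleton and axonal transport stood highest with 21 hosts among 28 members with a peak (75.0%) and 66 constant regions, followed by chromatin regulators with 21 of 30 (70.0%) and 77 regions. Ubiquitin and proteasome genes had 15 of 22, 14-3-3 adaptors 4 of 6 and translation factors 12 of 20. Hosts were fewest among subunits of oxidative phosphorylation, with 2 of 19 (10.5%), and cytosolic ribosomal proteins, with 3 of 20 (15.0%). These lists were written for genes known in the brain, so a share above the background was not tested and marks nothing particular to a list.

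Among cytoskeletal genes, Dst led with 9 regions and Macf1, the microtubule-actin linker, had 8, the first of which began at an annotated start (chr4:123683970-123684360). Kif5c, a neuronal kinesin, had 7 of 69 to 207 bases. The strongest of these, at chr2:49710720-49710868, scored 3100 in all lists, and another at chr2:49727891-49727959 scored 1178, 686 and 449 in the aged lists and 139, 171 and 193 in the young lists. Both had the same ends at both ages. Sptbn1 (beta spectrin) had 5 regions, and Mapt, which encodes the microtubule-binding protein tau, had 2. Tau's region of 50 bases at chr11:104302361-104302410 scored 3100 in each aged list and 3100, 2980 and 3100 in the young lists. Gap43, a growth-associated protein of axons, had a region of 179 bases at the start of its gene span (chr16:42340473-42340651) and scored 3100 in every list.

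Presynaptic genes had 15 hosts of 29 with 29 regions. Syt1, the calcium sensor of vesicle release, had 4, of which the one at chr10:108642214-108642398 scored 3100 in all lists. Cplx1 had 3, the first at an annotated start at chr5:108549889-108550027, with scores of 515, 768 and 341 in the aged lists and 237, 127 and 324 in the young lists. Snap25, a SNARE protein of the fusion machinery, and Rims1, an active zone scaffold, had 3 each. Of the genes of the postsynaptic density and synaptic adhesion, 8 of 23 were hosts. Cnksr2, a scaffold of the postsynaptic density, had 7 regions, Homer1 had 3, and Nrxn2 and Dlgap2 had 1 each. The Nrxn2 region, 1950 bases at chr19:6531268-6533217, ended at an annotated gene end. Among glutamate and GABA receptors 9 of 26 were hosts, namely Gria1, Gria2, Gria3, Grin2a, Grin2b, Grm5, Grm7, Gabbr1 and Gabbr2. Gria1 encodes a subunit of AMPA receptors. Its region near the gene start, chr11:57011618-57012115, scored 3100 in all lists, and that at chr11:57317666-57317800 scored 749, 385 and 1249 in the aged lists and 692, 50.2 and 346 in the young lists, with only young list 2 near the lowest score in use.

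Ion channels and calcium pumps had 12 hosts of 27 and 45 regions, with Ryr2 first and Itpr1, the inositol trisphosphate receptor, second with 6. Atp2b1, a plasma membrane calcium pump, had 4, and those at chr10:98991062-98991202 and chr10:98994646-98994807 scored 3100 in all lists. Scn8a, a sodium channel, also had 4. In translation, all 4 regions of Eif3a and 6 of Eif5b were strong, and no score of theirs fell under the 90th percentile of its list. Among RNA-binding proteins (16 hosts of 30) Hnrnpd and Hnrnpm had 4 each and Qk and Fmr1 had 3 each. The first region of Hnrnpd (chr5:99978392-99978938), of Qk (chr17:10318732-10319361) and of Fmr1 (chr X, 68678541 to 68678867) began at an annotated start. Fmr1 encodes the fragile X protein, and that region scored 809, 473 and 609 in the aged lists and 206, 86.3 and 159 in the young lists.

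Genes of RNA modification were also counted, against the same background of 17.6%. Of 10 genes for m5C writers, erasers and readers with a peak, 4 were hosts (40.0%): Fmr1 with 3 regions and Tet3, Tet2 and Nop2 with 1 each. Nop2, which methylates ribosomal RNA, had weak scores of 82.1, 74.0 and 145 in the aged lists and 246, 93.2 and 52.9 in the young lists at chr6:125134547-125134731. Of 17 m6A genes with a peak 4 were hosts (23.5%). Zc3h13, a subunit of the m6A writer complex, had 7 regions of 109 to 1191 bases, Ythdc1, a nuclear m6A reader, and Hnrnpc had 2 each, and Virma had 1. By the rule itself, these 8 hosts carried m5C peaks of their own in every sample.

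Heat shock and chaperone genes had 7 hosts of 20, led by St13, a cochaperone of Hsp70, with 7 regions of 58 to 117 bases. Trafficking and lysosome genes had 8 of 26 (Itsn1 with 4), kinases and phosphatases 12 of 29 (Ppp2r2a with 3), and axon guidance and adhesion genes 9 of 30 (Ctnnd2, Robo1 and Cntn1 with 2 each). The 14-3-3 hosts were Ywhae with 2 regions and Ywhah, Ywhab and Ywhaz with 1 each. Rpl13a, Rpl8 and Rplp0 were the ribosomal hosts and Ndufs1 and Atp5c1 those of oxidative phosphorylation. Of 20 genes linked to Alzheimer disease with a peak, 6 were hosts, among them App and Mef2c with 3 regions, Mapt and Bin1 with 2 and Cd2ap with 1. App, the amyloid precursor protein, had 2 of its 3 regions at 3100 in all lists, at chr16:85079840-85080033 and chr16:85056324-85056526.

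Markers of cell types were counted too. Among all genes with a peak, 17.6% were hosts, and 2960 of 9308 had a peak in every list. All 5 markers of excitatory neurons had peaks in all 6 lists, and 3 of them were hosts: Camk2a with 2 constant regions, the vesicular glutamate transporter Slc17a7 with 1 at an annotated start (chr7:45163921-45164144), and Prox1, a factor of dentate granule cells, with 1. No constant region was in any marker with a peak of inhibitory neurons (4), astrocytes (5), oligodendrocyte precursors (3), microglia (1), endothelium (3) or choroid plexus (1). With so few markers per type, neither the hosts nor their lack was tested, and they say little about a cell type.

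The remaining peaks of the host genes, called further peaks here, are those that did not meet the rule, and they were compared between ages. Constant regions take the same number of peaks from every list, so the whole difference in list length stays with the other peaks. A host gene had on average 2.42, 2.24 and 2.30 further peaks in the aged lists, against 1.29, 0.908 and 1.40 in the young lists. All aged lists lay above all young lists, and the difference of 1.12 peaks per host gene had an exact permutation p of 0.1 (two-sided, adjusted 0.125 over 5 comparisons). With 3 against 3 lists p cannot go below 0.1, so no comparison of ages here could pass 0.05. At least 1 further peak was found in 79.5% ± 0.738 of the hosts in the aged lists and in 61.4% ± 6.92 in the young lists (SD, n = 3 each; exact permutation p = 0.1, adjusted 0.125). The aged lists were longer as a whole. With every list shortened to its highest-scoring peaks, as many as in the shortest, the averages were 1.50 in aged and 1.20 in young lists, a difference of 0.293, and the difference in the share of hosts with a further peak was 6.40 percentage points, against 18.1 in the full lists.

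Of the other peaks of a list, 32.9% ± 0.443 lay in host genes in the aged lists and 29.3% ± 2.37 in the young lists (SD, n = 3 each; difference 3.60 percentage points, exact permutation p = 0.1, adjusted 0.125; added after the data were examined). This difference was 7.001 in lists of equal length and 1.92 among peaks from the median score of each list upward. The share of further peaks in the first 1000 bases of their gene was 7.35% ± 0.405 in the aged lists and 7.66% ± 0.508 in the young lists (exact permutation p = 0.5, adjusted 0.5). In the last 1000 bases it was 5.03% ± 0.429 in the aged lists and 6.20% ± 0.133 in the young lists, with a difference of -1.17 percentage points (exact permutation p = 0.1, adjusted 0.125). The ranges of the ages did not overlap at the gene ends, and they did at the gene starts. In lists of equal length the difference at the gene ends was -0.54 percentage points (exact permutation p = 0.3).

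Gene by gene, 383 of 1634 hosts (23.4%) had more further peaks in every aged list than in every young list, against 11.9% of all 9308 genes with a peak. Of 1326 genes that had a peak in every list but no constant region, 150 (11.3%) did. In such genes every peak counts, while in hosts the constant regions do not. The opposite order, every young list above every aged list, was found for 6 hosts (0.367%), against 0.956% of all genes, and for 9 to 16 hosts with any 1 list left out. In lists of equal length, 86 hosts (5.98%) were higher in aged and 3.37% of all genes were, while 21 of 1437 hosts were higher in young. Among peaks from the median score of each list upward, 190 hosts (17.5%) and 599 of 5004 genes were higher in aged, and 1 of 1085 hosts was higher in young. Under these alternatives the genes higher in young were counted among hosts only. Those counts therefore have no share over all genes beside them and say nothing particular about hosts.

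**Figure D5:**
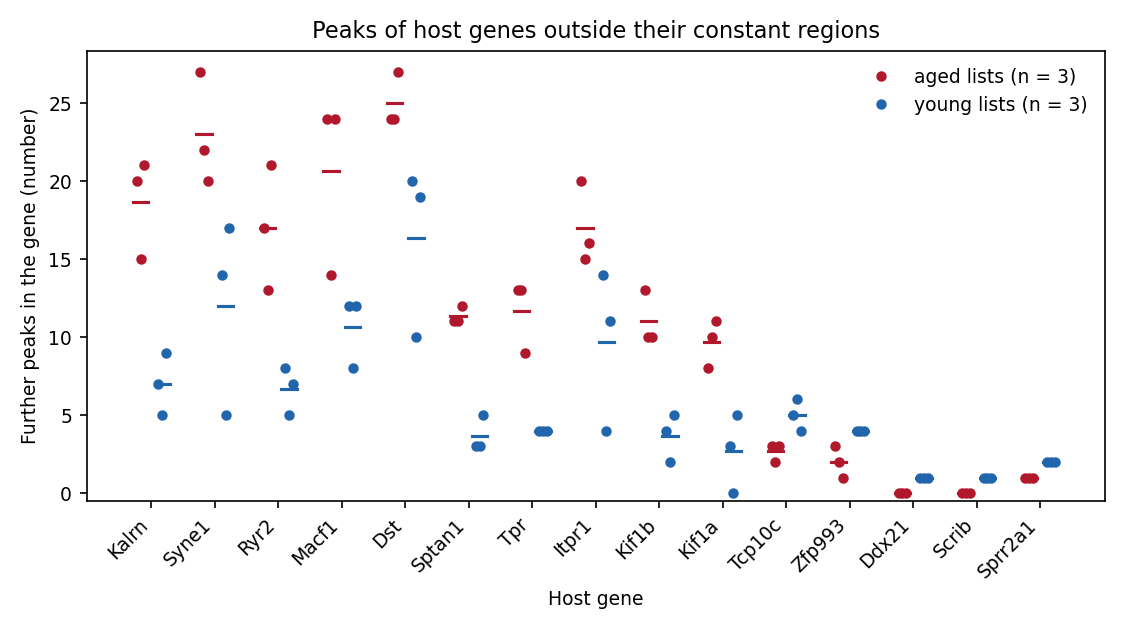
Number of further peaks (y axis) in the 10 host genes with the largest aged minus young difference and the 5 with the largest in the other direction (x axis), among genes whose ages do not overlap; each dot is 1 list, red aged and blue young, and lines are means of 3. Kalrn holds 15 to 21 further peaks in the aged lists and 5 to 9 in the young lists.

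Kalrn, an exchange factor that shapes dendritic spines, had the largest difference in the full lists, with 20, 15 and 21 further peaks in the aged lists against 7, 5 and 9 in the young lists, next to 5 constant regions. Syne1, a giant linker of the nucleus to the cytoskeleton, had 27, 22 and 20 in the aged lists against 14, 5 and 17 in the young lists. Ryr2 had 17, 13 and 21 in the aged lists against 8, 5 and 7 in the young lists. The ages did not overlap in any of these genes, as the plot of further peaks by host gene shows. In lists of equal length the difference was 3.00 for Kalrn (11.7 in the full lists), with the ages still apart, 0 for Syne1 and -0.67 for Ryr2.

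The other genes of this group encode cytoskeletal linkers, calcium channels, kinesins and a nuclear pore protein. Macf1 had 24, 14 and 24 in aged lists against 12, 8 and 12 in young lists, and Dst 24, 24 and 27 in aged lists against 20, 10 and 19 in young lists. Sptan1 (alpha spectrin) had 11, 11 and 12 in aged lists against 3, 3 and 5 in young lists. Tpr, of the nuclear pore basket, had 13, 13 and 9 in aged lists against 4 in each young list. Each of these 4 genes holds at least 3 constant regions. Itpr1 had 20, 15 and 16 in aged lists against 14, 4 and 11 in young lists. For the kinesins, Kif1b had 13, 10 and 10 in aged lists against 4, 2 and 5 in young lists, and Kif1a 8, 10 and 11 in aged lists against 3, 0 and 5 in young lists. At equal list length the ages overlapped for Macf1 (difference 1.33), Itpr1 (4.33) and Kif1b (2.33), and they stayed apart for Dst (5.00), Sptan1 (5.67), Tpr (2.67) and Kif1a (3.67).

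In the other direction the numbers were small. Tcp10c had 3, 2 and 3 further peaks in the aged lists against 5, 6 and 4 in the young lists, and Zfp993, a zinc finger gene of a repeated family, 3, 2 and 1 in aged lists against 4 in each young list. Ddx21, an RNA helicase of the nucleolus, and Scrib, a polarity protein, had none in the aged lists and 1 in each young list. Sprr2a1 had 1 in each aged list and 2 in each young list. Tcp10c, Zfp993 and Sprr2a1 belong to families of near-identical genes, so the placing of their reads is uncertain. Tcp10c, Scrib and Sprr2a1 overlapped between ages in lists of equal length.

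Not all hosts had further peaks. In 180 (11.0%) no list had one, and 39 of these had at least 2 constant regions. All peaks placed in these genes alone thus had the same ends in every list, while their scores could differ. After Myo5a with 10 came Pdcd4, a translation repressor, and Prpf4b, a splicing kinase, with 5 each and Tbca, a tubulin-folding cofactor, with 4. By contrast 665 hosts had a further peak in every list.

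The 43 constant regions outside protein-coding genes of their strand were mostly in pseudogenes. In all 32 overlapped an annotated pseudogene, 2 a long non-coding RNA, 2 the opposite strand of a coding gene (Serf1 and Sec62) and 7 no annotated gene. A read from an expressed gene can align to its pseudogene, so these places are uncertain. Of the 7 without a gene, 3 scored 3100 in every list, at chr2:98662237-98662522 on the plus strand, chr2:98666735-98667040 on the minus strand and chr14:19417133-19417366 on the minus strand. The single region on the Y chromosome was in the pseudogene Mid1-ps1 at 90763137 to 90763485, although the mice were labelled female. It scored 572, 458 and 580 in the aged lists and 751, 3100 and 1555 in the young lists, and its name marks it as a copy of Mid1, which is on the X chromosome.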

How the data were processed

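Methylated RNA immunoprecipitation with an m5C antibody was run on 3 aged and 3 young hippocampus samples, each with an input library. Per the submitters' processing notes, cutadapt 1.9.3 and HISAT2 2.0.4 were used with the mouse build mm10. The authors deposited 1 peak list per IP sample, so calls were made for each sample and not on pools. For the peak caller, version and settings were not given in the sources used here. Each deposited peak has a start, an end and a strand, and a score that is the authors' own value per peak. The start in the deposited lists counts from 0 and was written counting from 1. Depth is unknown, so no interval that needs it is given.

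Lists were merged where peaks touched or overlapped on the same strand. Peaks were given to RefSeq protein-coding spans (GRCm38.p6) on the same strand by an overlap of at least 1 base. Position was counted in the first and last 1000 bases of spans of at least 2000 bases. Differences between constant regions and other peaks in width, exact ends, gene position and gene span went through exact sign flips over 6 lists. Their p-values are not given, because the rule read the coordinates behind them. The constant value is also the same in every list. Differences between ages were tested by an exact permutation of 3 against 3. The p-values of the differences between ages were adjusted by the Benjamini-Hochberg method over 5 comparisons. The steps were tested on simulated data.

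The members, gene lists and tests were chosen with earlier results of these data known. The rule named the 10 genes with the most regions, the 8 widest, the 10 with the highest and the 10 with the lowest within-list scores, up to 4 genes per list, the 10 and 5 hosts with the largest differences between ages in each direction, and the 5 nearest misses, and left out predicted genes. A few genes that this rule names are not reported here. Genes named beside these, such as the regions that begin at an annotated start, were chosen after their values were seen. Alternatives were other merging, ends within 10 or 50 bases, windows of 500 or 2000 bases, other peaks from shared regions only, the peaks from the median score upward, lists of equal length, each list left out and a replicate block. Python 3.11.15, numpy 2.4.6, pandas 2.3.3, scipy 1.17.1 and matplotlib 3.10.9 were used.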

Additional observations from a re-analysis of the deposited data

How the results depend on the processing

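Merging only by a shared base or without regard to strand changed no result. The number of constant regions was 3014 with ends within 10 bases, 3142 within 50 bases, 2540 in lists of equal length and 1812 with only the peaks from the median score of a list upward, and 3056 to 3615 with 1 list left out (3615 without young list 2). The difference at gene starts reversed to 0.504 with ends within 10 bases, 1.89 within 50 bases and 0.490 with windows of 500 bases, grew to -2.87 against other peaks of regions shared by all lists, and ran between -0.511 and 0.632 with 1 list left out (0.284 without aged list 1 and 0.632 without aged list 2). With 1 list left out, the other constant-minus-other differences ran between -7.33 and -7.15 percentage points at gene ends and between -141.2 and -125 bases in width. They ran between 4.08 and 4.89 points for multiples of 3, 1.05 and 1.77 points for annotated starts, and 19.9 and 20.8 kb for gene span. The share at gene ends also moved with the window and the choice of other peaks, between -14.1 and -2.53 points, without a change of sign. The share of further peaks at host gene starts reversed to 0.425 points with ends within 50 bases and 0.203 at equal length, where the share at host gene ends was -0.537 points. Genes with more further peaks in every aged list were 599 (190 of them hosts) from the median score upward and 240 (86 hosts) at equal length, and 1269 to 1621 (471 to 570 hosts) with 1 list left out. Hosts higher in young were 1 from the median score upward, 21 at equal length and 9 to 16 with 1 list left out, without a count over all genes beside them. Ryr2 reversed to -0.667 at equal length, and Kif1b, Tcp10c, Ddx21, Scrib and Sprr2a1 overlapped between ages from the median score upward. The cause of these changes was not tested.

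The labels give the ages the same replicate numbers, without saying that a number marks a shared source. Over the constant regions, the within-list percentiles of same-numbered lists deviated from their age means with correlations of 0.004, 0.003 and 0.005. For lists of different numbers the correlations ran between -0.024 and 0.019. These scores cannot exclude a shared source or batch, so whether a number marks a pair is unknown. With the age labels exchanged only within numbers (replicate block), the difference in further peaks per host gene was 1.12 and p was 0.25 by an exact permutation, the smallest that 3 pairs allow.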
